A study of Mus musculus with 10 samples.

Results

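The comparison of cocaine with saline self-administration covered 6 of the 10 libraries of a ribosome affinity purification series from mouse striatum. These were the 3 immunopurified libraries titled for cocaine and the 3 titled for saline. Of 32531 gene symbols listed in the count tables, 14989 passed a filter on low counts and were compared. All animals were adult mice of the Chat-TRAP line DW167, which carries a Chat-EGFP/Rpl10a transgene. In such TRAP mice (translating ribosome affinity purification), a ribosomal protein fused to a fluorescent protein is made in cells that use the Chat gene's regulatory sequence, so that their ribosomes can be pulled out of a mixed tissue with an antibody. Here the whole striatum was homogenised, and polysomes were captured with antibodies against the fluorescent tag, in both groups alike. The groups differ by the labels only in what the mice worked for, saline or cocaine. A yoked control group of 3 immunopurified libraries shared the fit that estimated the spread, and 1 library of unpurified striatal RNA after saline (the input) gave the level in the whole tissue. Whether 1 mouse or a pool stands behind each library is not in the labels, and neither are the dose, the number of sessions or the treatment of the yoked mice. The p-values below therefore measure the spread between these libraries, which may be technical. The saline libraries carry lane number 3 and the cocaine libraries lane number 4, so lane and drug cannot be told apart. The yoked libraries also carry lane number 4, so they share the lane number of cocaine wherever their levels are given below.

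Cholinergic interneurons are a small population of large, tonically active striatal cells that release acetylcholine onto spiny projection neurons and dopamine axons. They carry dopamine receptors, among them the D2 and D5 types, and pause their firing when dopamine is released. Cocaine blocks the dopamine transporter, and self-administration, in which the animal earns each infusion by an action, is a standard model of drug taking.

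Replicate 2 of each group had another composition than replicates 1 and 3. The precursor of ribosomal RNA, listed as Rn45s, measured 19878 CPM (counts scaled to library size) in saline library 2 against 104980 and 128327 CPM in the other saline libraries, and 35180 CPM in cocaine library 2 against 111057 and 134751 CPM. The 10 most abundant genes took 6.01 to 9.66% of gene counts in the libraries numbered 2 and 15.1 to 20.2% in the other immunopurified libraries. Cocaine library 2 was also the deepest, with 75220900 gene counts, where the other 5 held 24526800 to 42100800. Snap25, a protein of synaptic vesicle fusion, stood at 29627 CPM in cocaine library 2 and between 8885 and 12913 CPM in the other 5. The origin of these differences was not tested, and values are therefore given with all libraries and without replicate 2 of each of the 3 groups.

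The purified RNA of both groups carried the defining transcripts of cholinergic neurons far above the input. Chat, which makes acetylcholine, measured 473, 592 and 587 CPM in saline libraries 1 to 3 and 594, 736 and 567 CPM in cocaine libraries 1 to 3, where the input held 10.1 CPM. The groups overlapped, and the 95% interval of the log2 fold change ran from −0.15 to 0.55 around 0.20. The transporters Slc18a3, which loads acetylcholine into vesicles, and Slc5a7, which takes up choline, had log2 fold changes of −0.29 and −0.14. Without replicate 2 these were 0.033 and −0.23. Chat and Slc18a3 overlap in the annotation, so reads from the shared stretch cannot be told apart. Of 12 cholinergic markers 4 were higher and 8 lower, with a median of −0.065, and 3 and 9 without replicate 2 (median −0.028). The summed level of the 12 was 5082 to 6654 CPM in saline and 5285 to 6049 CPM in cocaine libraries, against 148 CPM in the input. In bulk RNA of this kind, fewer captured cells and less RNA per cell cannot be told apart. Rpl10a, the ribosomal protein that the tag is fused to, stood at 6.20, 2.20 and 9.67 CPM after saline and 12.3, 5.84 and 11.4 CPM after cocaine, and reads of the gene and the tag cannot be separated.

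No transcript passed the test between cocaine and saline at a false discovery rate of 0.05, given the spread between libraries. With edgeR's quasi-likelihood test and Benjamini-Hochberg adjustment, 0 of 14989 genes passed (0.00%), and the smallest adjusted p was 0.850. At an unadjusted p under 0.05 stood 414 genes that were higher after cocaine (2.76% of those tested) and 377 that were lower (2.52%), together 5.28%. All 3 cocaine libraries lay above all 3 saline libraries in 729 genes (4.86%) and below them in 840 (5.60%). The fitted log2 fold change was above 0 in 50.6% of genes, and its median was 0.0049. DESeq2 on the same libraries passed 0 genes with 564 higher and 423 lower at an unadjusted p under 0.05, and limma voom passed 0 with 411 and 294. Without a filter on low counts edgeR passed 60 genes, 47 higher and 13 lower, of which 53 were among the genes tested here. Without replicate 2 of each group 0 genes passed (0.00%, smallest adjusted p = 0.9999), and 354 genes were higher (2.36%) and 159 lower (1.06%) at an unadjusted p under 0.05.

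The precision was enough to bound large changes in well expressed genes. Among 10249 genes of at least 5 CPM over the 6 libraries, the 95% interval of the fold change lay wholly within 2-fold either way for 7992 (78.0%) and within 1.5-fold for 3045 (29.7%). The typical interval reached 0.50 to each side on the log2 scale, a factor of 1.42. For genes below 5 CPM the typical interval reached 1.98 to each side, so that changes were bounded far less tightly there. The plot of fold change against level shows this widening toward low levels.

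**Figure D1:**
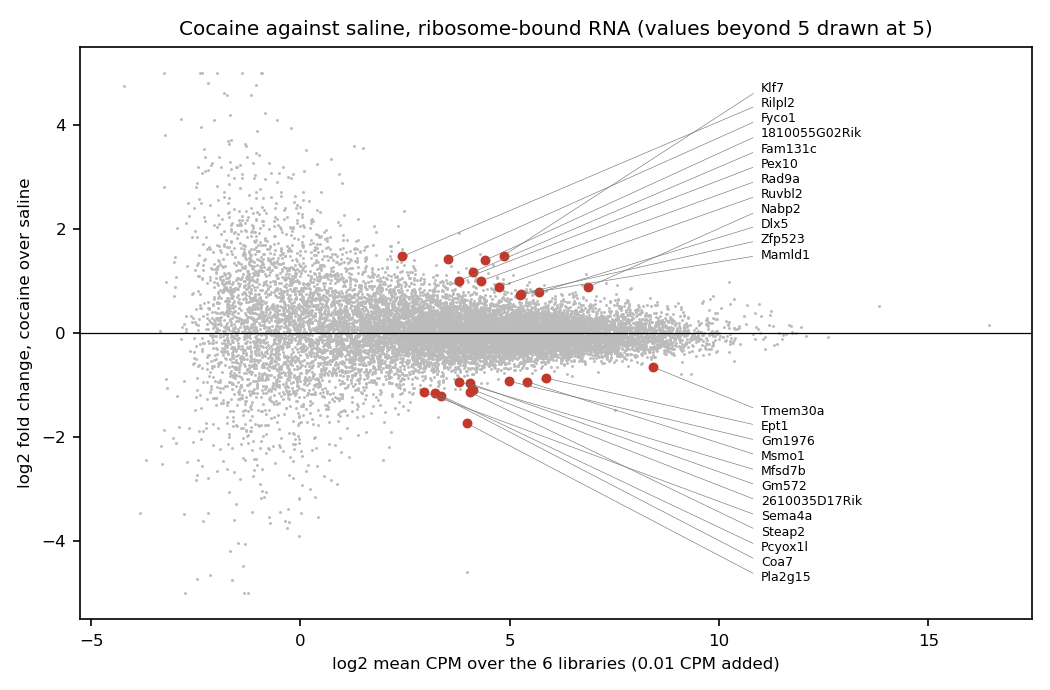
Log2 fold change of cocaine over saline (vertical axis) against log2 mean level over the 6 libraries (horizontal axis, CPM) for the 14989 genes tested, 1 grey point a gene. The 24 labelled red points are the 12 genes in each direction with the smallest p at 5 CPM or more, none of which passed, and the cloud is centred near 0 and narrows toward high levels.

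Replicate 2 carried most of the genes with a small p. Of 622 genes of at least 5 CPM at an unadjusted p under 0.05, 304 were higher and 318 lower after cocaine. Among the 304, cocaine library 2 was the highest of the 6 libraries in 240, cocaine library 1 in 25 and cocaine library 3 in 39, and saline library 2 was the lowest in 188. Among the 318, saline library 2 was the highest in 260 and cocaine library 2 the lowest in 242. Over all genes of at least 5 CPM, cocaine library 2 lay over 2-fold from the mean of the other cocaine libraries in 786 (7.67%) and saline library 2 in 444 (4.33%), where the other 4 libraries did so in 115 to 264 (1.12 to 2.58%). Of the 791 genes at an unadjusted p under 0.05, 509 had a log2 fold change over 1.5 times smaller without replicate 2, and 14 turned sign. A total of 191 genes, 123 higher and 68 lower, had an unadjusted p under 0.05 in the same direction both with and without it, 24.1% of the 791 and 37.2% of the 513 found without it. These comparisons share libraries 1 and 3, so the overlap is a description.

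**Figure D2:**
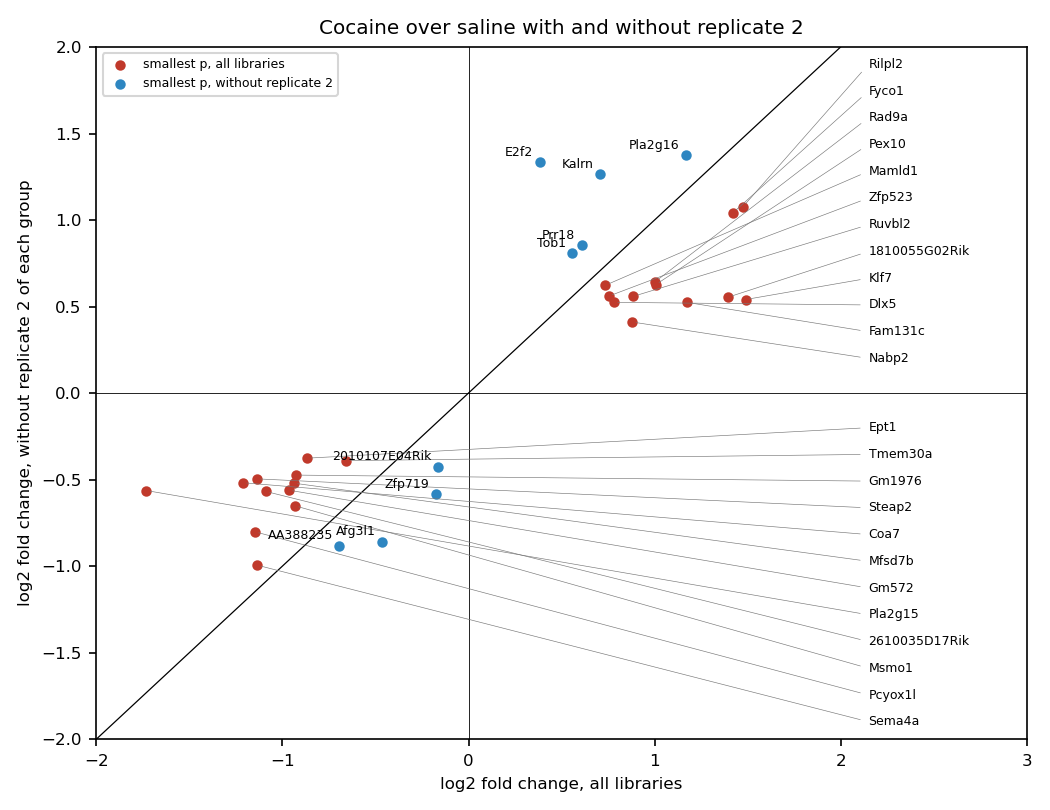
Log2 fold change of cocaine over saline with all libraries (horizontal axis) and without replicate 2 of each group (vertical axis). Red points are the 24 genes with the smallest p with all libraries, 16 of which shrank over 1.5 times, blue points the genes with the smallest p without replicate 2, and the diagonal marks equal values.

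The genes named in each direction were those with the smallest p at 5 CPM or more, 24 in all, and each had an adjusted p of 0.850 (edgeR, Benjamini-Hochberg). In 22 of the 24 the groups did not overlap, which the choice by small p favours. Without replicate 2 all 24 had the same sign, 19 had an unadjusted p under 0.05, and 16 had shrunk over 1.5 times. The 8 that had not were Fyco1, Dlx5, Zfp523, Rilpl2, Mamld1, Msmo1, Pcyox1l and Sema4a.

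Of the 12 genes toward higher levels, several encode nuclear proteins. Mamld1, a mastermind-like transcriptional coactivator (chrX:71050036-71156056, mm10), measured 30.4, 24.7 and 29.8 CPM in saline libraries 1 to 3 and 46.7, 49.3 and 45.3 CPM in cocaine libraries 1 to 3. The libraries of each group lay close together and the groups did not overlap. Its log2 fold change was 0.74 ± 0.21 (SE), and 0.62 without replicate 2. Dlx5, a homeobox factor of forebrain interneuron development (chr6:6877801-6882068), measured 33.6, 32.6 and 48.0 CPM after saline and 59.3, 79.5 and 57.2 CPM after cocaine. The lowest cocaine library stood above the highest saline library, and the log2 fold change was 0.78 ± 0.20, or 0.52 without replicate 2. Klf7, a Krüppel-like factor of neuronal differentiation (chr1:64029448-64122345), measured 18.5, 11.7 and 15.3 CPM after saline and 27.6, 78.6 and 21.2 CPM after cocaine. Here cocaine library 2 alone set most of the difference, and the log2 fold change of 1.49 ± 0.39 became 0.54 without replicate 2. Zfp523, a zinc finger protein, measured 28.6 ± 2.83 CPM (SD, n = 3) after saline and 48.1 ± 9.34 CPM after cocaine. Ruvbl2, an ATPase of chromatin remodelling complexes, stood at 18.8 ± 0.717 and 34.8 ± 11.7 CPM. Rad9a, a subunit of the DNA damage checkpoint clamp, stood at 13.3 ± 5.31 and 26.6 ± 6.12 CPM, and Nabp2, a protein that binds single-stranded DNA, at 81.8 ± 8.62 and 150.3 ± 68.9 CPM. For Nabp2 cocaine library 2 reached 228 CPM, against 124 and 97.9 CPM in the other cocaine libraries. Rad9a overlaps Ppp1ca and Ruvbl2 overlaps Gys1 in the annotation, and with no strand setting stated, reads of overlapping genes cannot be told apart.

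The other 5 genes toward higher levels have varied roles. Fyco1, an adaptor that links autophagosomes to kinesin (chr9:123789500-123851899), measured 6.97, 5.68 and 6.01 CPM after saline and 13.3, 23.4 and 13.2 CPM after cocaine. Saline libraries were tightly grouped and every cocaine library lay clearly above them, with a log2 fold change of 1.42 ± 0.35, and 1.04 without replicate 2. Rilpl2, a relative of the Rab-interacting lysosomal protein, measured 3.37, 1.60 and 3.60 CPM after saline and 7.35, 9.22 and 7.27 CPM after cocaine. Its groups did not overlap either, but its 3 yoked libraries, at 9.13 ± 3.80 CPM, averaged above the cocaine mean of 7.95 ± 1.104 CPM. Pex10, a ubiquitin ligase of peroxisome import, stood at 9.11 ± 2.57 CPM after saline and 18.3 ± 3.77 CPM after cocaine. The remaining genes, 1810055G02Rik and Fam131c, had their high value in cocaine library 2. It reached 53.7 CPM for 1810055G02Rik, against 20.5 and 17.8 CPM, and 39.0 CPM for Fam131c, against 13.6 and 20.01 CPM. Their log2 fold changes of 1.40 and 1.17 became 0.55 and 0.52 without replicate 2.

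**Figure D3:**
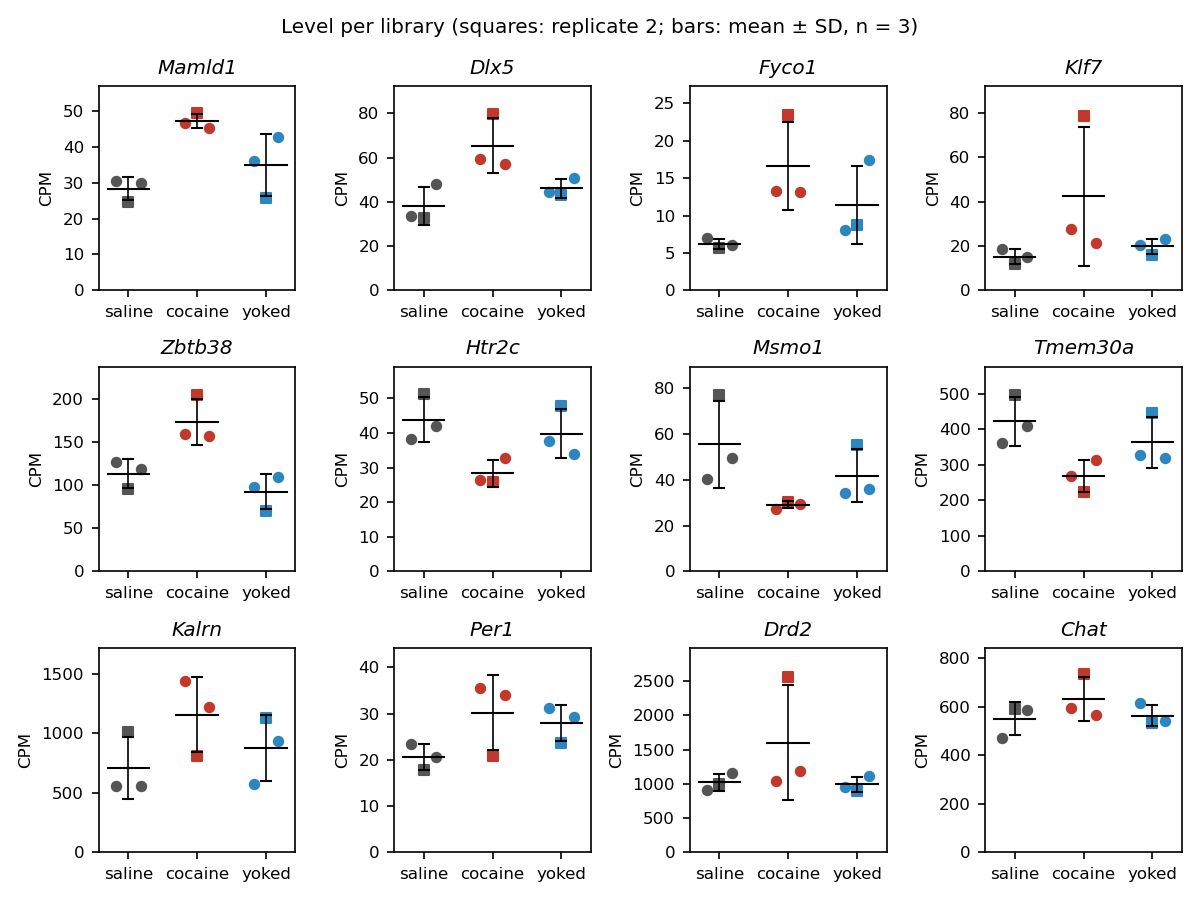
Level in CPM (vertical axes, each from 0) of 12 genes in every saline, cocaine and yoked library, with squares for replicate 2 and black bars for mean ± SD over 3 libraries. For Mamld1 the cocaine libraries sit between 45.3 and 49.3 CPM above all saline libraries, while for Klf7 and Drd2 the square of cocaine library 2 stands apart from the circles.

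Among the genes toward lower levels were enzymes of cholesterol synthesis, which neurons run through the mevalonate pathway and adjust by sterol-regulated transcription. The proximal promoters of Msmo1, Cyp51 and Hmgcs1 are shown because these genes had among the smallest p of the pathway. Each is the 250 bases before the gene's start from RefSeq (build GRCm38.p6, which is mm10), read 5′ to 3′ on the gene's strand, at chr8:64733579-64733828 (minus), chr5:4104698-4104947 (minus) and chr13:119690101-119690350 (plus). Capitals mark matches to CCAAT, the box bound by NF-Y, and to TCACNCCAC, the sterol regulatory element core, searched on both strands, where ATTGG is CCAAT on the other strand.
Msmo1: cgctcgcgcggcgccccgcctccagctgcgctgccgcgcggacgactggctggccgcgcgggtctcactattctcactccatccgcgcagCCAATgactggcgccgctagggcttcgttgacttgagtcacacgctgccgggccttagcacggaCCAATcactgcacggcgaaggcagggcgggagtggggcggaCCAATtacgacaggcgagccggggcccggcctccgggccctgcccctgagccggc
Cyp51: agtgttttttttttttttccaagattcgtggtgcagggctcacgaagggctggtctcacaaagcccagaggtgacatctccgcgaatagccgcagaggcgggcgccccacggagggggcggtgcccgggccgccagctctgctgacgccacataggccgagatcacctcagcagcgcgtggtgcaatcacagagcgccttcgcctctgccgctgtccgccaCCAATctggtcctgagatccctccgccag
Hmgcs1: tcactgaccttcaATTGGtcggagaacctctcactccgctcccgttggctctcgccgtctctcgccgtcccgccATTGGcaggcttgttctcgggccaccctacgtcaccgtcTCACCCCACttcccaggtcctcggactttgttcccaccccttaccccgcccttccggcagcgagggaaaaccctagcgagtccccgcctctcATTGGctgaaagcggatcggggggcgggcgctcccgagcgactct
CCAAT matched in 14 of 18 annotated promoters of 15 cholesterol synthesis genes (77.8%), against 33.8% of 32851 promoters of the same length, and TCACNCCAC in 1 of 18 (5.56%) against 1.05%. A match describes these letters only, and a promoter without one may hold a site in another form or place.

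Msmo1, the sterol C4-methyl oxidase (chr8:64718123-64733578), measured 40.3, 76.9 and 49.7 CPM in saline libraries 1 to 3 and 27.5, 30.5 and 29.3 CPM in cocaine libraries 1 to 3. The cocaine libraries lay within a narrow band below every saline library, while saline library 2 was far above its group. The log2 fold change was −0.93 ± 0.25 (SE, 95% interval −1.47 to −0.40, adjusted p = 0.850 in edgeR), and −0.65 without replicate 2. Cyp51, the lanosterol demethylase, measured 65.6, 87.8 and 66.6 CPM after saline and 48.1, 56.6 and 51.4 CPM after cocaine. Its groups did not overlap, and its log2 fold change of −0.49 ± 0.21 was −0.40 without replicate 2. Hmgcs1, a synthase of the first steps of the pathway, measured 95.01, 155 and 116 CPM after saline and 88.4, 88.7 and 97.1 CPM after cocaine. Its groups overlapped, and saline library 2 was the highest of the 6. Of the pathway's 20 genes, 15 were lower and 5 higher, with a median log2 fold change of −0.26, where 49.4% of all genes were lower. 4 of them had an unadjusted p under 0.05 toward lower levels, and 3 lay wholly below saline, where 2.52% and 5.60% of all genes did so. Without replicate 2, 18 were lower and 2 higher with a median of −0.16. Leaving out 1 library at a time moved the median between −0.41 and −0.081. The 19 genes of sterol regulation and transport divided, with 12 lower and 7 higher (median −0.092), and 6 lower and 13 higher without replicate 2 (median 0.062). Of these, Insig2, which holds the sterol sensor in the endoplasmic reticulum, measured 104 ± 11.2 CPM after saline and 80.6 ± 14.1 CPM after cocaine. Lcat, an enzyme that esterifies plasma cholesterol, stood at 0.658, 0.376 and 0.0974 CPM after saline and 0.449, 9.19 and 3.77 CPM after cocaine, with groups that overlapped.

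Other genes toward lower levels belong to membrane lipid handling. Tmem30a, the partner subunit of phospholipid flippases (chr9:79768941-79793430), measured 360.4, 497 and 409 CPM after saline and 268, 222 and 314 CPM after cocaine. Every cocaine library lay below every saline library, and the log2 fold change of −0.66 ± 0.19 was −0.39 without replicate 2. Ept1, the enzyme that completes phosphatidylethanolamine (chr5:30232581-30272430), measured 61.4, 107 and 57.8 CPM after saline and 47.1, 33.0 and 44.1 CPM after cocaine. Its groups were apart, with the largest gap between the libraries numbered 2. Pla2g15, a lysosomal phospholipase, stood at 8.87, 48.1 and 15.1 CPM after saline and 5.80, 5.67 and 10.2 CPM after cocaine, so that saline library 2 alone carried most of its log2 fold change of −1.73 ± 0.50. Etnk1, an ethanolamine kinase, measured 534 ± 83.3 and 404 ± 70.4 CPM. Of 27 phospholipid synthesis and flippase genes tested, 17 were lower and 10 higher, with a median of −0.13 that was −0.0040 at its weakest when 1 library was left out. Without replicate 2, 18 were lower and 9 higher (median −0.071).

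The other genes toward lower levels had mixed roles. Sema4a, a membrane-bound semaphorin, measured 10.496, 10.98 and 10.3 CPM after saline and 3.02, 4.16 and 7.27 CPM after cocaine. Its saline libraries were nearly equal and all cocaine libraries lay below them, with a log2 fold change of −1.14 ± 0.36, and −0.99 without replicate 2. Pcyox1l, a relative of prenylcysteine oxidase, measured 12.4, 14.1 and 11.9 CPM after saline and 5.10, 3.60 and 8.70 CPM after cocaine, again with no overlap. Steap2, a metalloreductase, stood at 22.9 ± 10.01 CPM after saline and 10.4 ± 2.90 CPM after cocaine, Mfsd7b, a heme exporter, at 18.2 ± 4.44 and 9.53 ± 2.36 CPM, and Coa7, an assembly factor of cytochrome oxidase, at 14.2 ± 6.03 and 6.15 ± 2.23 CPM. Gm572, Gm1976 and 2610035D17Rik had log2 fold changes of −0.97, −0.93 and −1.09, and −0.56, −0.47 and −0.57 without replicate 2. Gm572 was nearly absent from the input, at 0.0978 CPM.

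Without replicate 2 the smallest p belonged to other genes, apart from Msmo1. Kalrn, a guanine nucleotide exchange factor of dendritic spines (chr16:33969073-34573277), measured 560.2, 1009.8 and 554 CPM in saline libraries 1 to 3 and 1435, 812 and 1221 CPM in cocaine libraries 1 to 3. In libraries 1 and 3 cocaine stood above saline, in the libraries numbered 2 it stood below, and the groups overlapped. The log2 fold change was 0.71 ± 0.29 with all libraries and 1.26 without replicate 2. The yoked libraries averaged 877 ± 279 CPM, between both groups. Pla2g16, a phospholipase of lipid droplets and peroxisomes, measured 4.38, 3.10 and 3.77 CPM after saline and 9.71, 4.43 and 11.2 CPM after cocaine, and was at 70.8 CPM in the input. Its groups did not overlap, and its log2 fold change of 1.17 was 1.37 without replicate 2. Tob1, an antiproliferative factor that promotes mRNA deadenylation, went from 0.56 to 0.81 and Prr18 from 0.61 to 0.86. E2f2, a cell cycle transcription factor, went from 0.38 to 1.33 and was −0.21 without cocaine library 3. Toward lower levels, Zfp719 went from −0.18 to −0.58, Afg3l1 from −0.47 to −0.86, 2010107E04Rik from −0.16 to −0.43 and AA388235 from −0.69 to −0.88. None of these passed in either fit.

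Of the 6 genes with the smallest p below 5 CPM, 4 had 0 or 1 count in 1 group. Ipcef1 and Glra3 had counts in every library of both groups. Ifi27l2a, an interferon-induced gene, had 0, 0 and 1 counts in saline libraries 1 to 3 and 16, 65 and 19 in cocaine libraries 1 to 3. The ratio of summed counts, scaled to library size, was 78.5 with a 95% counting interval of 13.8 to 3130, and the yoked libraries held 0.913 ± 0.631 CPM. Pole2, a subunit of DNA polymerase epsilon, had 1 count after saline and 160 after cocaine, a ratio of 126 (22.2 to 4990), and 126 of the 160 came from cocaine library 2. Ipcef1 had 217 and 861 counts, a ratio of 3.11 (2.68 to 3.63), and overlaps the opioid receptor gene Oprm1, so their reads cannot be told apart. It measured 2.26 ± 0.615 CPM after saline and 6.71 ± 3.04 CPM after cocaine, against 93.6 CPM in the input. Its yoked libraries, at 8.16 ± 2.53 CPM, averaged above the cocaine mean. Toward lower levels, the glycine receptor subunit Glra3 had 689 counts after saline and 330 after cocaine, 2.66-fold lower (2.33 to 3.04). Of the 689, 374 came from saline library 2. The yoked libraries held 2.97 ± 0.375 CPM of Glra3, near the cocaine mean of 2.57 ± 0.150 CPM. AK043467 had 27 counts after saline and 0 after cocaine, at least 11.5-fold lower with a floor of 3 counts over the group. Of the 27, 22 came from saline library 2, and without it the bound was 3.14-fold. Gm13710 had 74 and 0, at least 31.4-fold lower (11.9-fold without saline library 2), yet its saline library 3 also held 0. Counting intervals cover counting error only, because they pool the libraries of a group and leave out the spread between them. The reads also carry no molecular identifiers. The fitted 95% intervals of the log2 fold change, which include that spread, ran from 0.63 to 2.52 for Ipcef1 and from −2.42 to −0.47 for Glra3.

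Of the dopamine receptors, through which cholinergic neurons read the transmitter that cocaine raises, none of those tested passed after adjustment. Drd2, the inhibitory receptor of cholinergic neurons (chr9:49340360-49408177), measured 908, 998 and 1158 CPM in saline libraries 1 to 3 and 1040.4, 2560.5 and 1193 CPM in cocaine libraries 1 to 3. Cocaine library 2 stood far above the rest, while the other cocaine libraries lay within the range of saline or just above it. The log2 fold change of 0.65 (95% interval 0.06 to 1.23, adjusted p = 0.850 in edgeR) was 0.13 without replicate 2. Drd5, the excitatory D1-like receptor of these cells, measured 102, 170.3 and 145 CPM after saline and 115, 129 and 119.8 CPM after cocaine, with groups that overlapped and an interval from −0.63 to 0.23. Drd1, which marks direct pathway spiny neurons, stood at 31.5 ± 17.8 and 40.0 ± 9.43 CPM, against 370.4 CPM in the input. Drd3 lay at or below 1.96 CPM in all 6 libraries, and its log2 fold change of 0.38 was −1.69 without replicate 2. Drd4 did not pass the filter.

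Of the receptor lists described here, that of serotonin receptors held the member with the smallest p, Htr2c. Htr2c (chrX:146962464-147197277) measured 38.3, 51.2 and 42.1 CPM after saline and 26.4, 25.8 and 32.7 CPM after cocaine. All cocaine libraries lay below all saline libraries, with a log2 fold change of −0.63 ± 0.20, or −0.43 without replicate 2. Htr1a measured 21.5, 26.6 and 8.99 CPM after saline and 11.7, 6.33 and 9.30 CPM after cocaine, with overlap through saline library 3. Htr5a stood at 37.7 ± 2.87 and 56.4 ± 25.1 CPM, and its high value, 85.4 CPM, was in cocaine library 2. Htr3a, the ion channel subunit that marks another interneuron class, lay under 0.5 CPM in all 6 libraries. Of 11 serotonin receptors tested, 7 were higher and 4 lower, with a median of 0.45 that ran from −0.092 (without cocaine library 3) to 0.70 when 1 library was left out. Among the 4 of at least 5 CPM, 1 was higher and 3 lower, with a median of −0.39. Of 11 acetylcholine receptors 6 were higher and 5 lower, and the smallest p was that of the nicotinic subunit Chrnb3, at 0.194, 6.90 and 0.536 CPM after saline and 0.0408, 0.406 and 0.667 CPM after cocaine, where saline library 2 stood alone. Its log2 fold change of −2.75 was −0.02 without replicate 2. Of 25 glutamate receptor genes 16 were higher and 9 lower (median 0.12). Of 15 GABA receptor genes 8 were higher and 7 lower, and without replicate 2 2 were higher and 13 lower (medians 0.19 and −0.11). Of 6 opioid and tachykinin receptors 2 were higher and 4 lower (median −0.054), and Oprl1, the nociceptin receptor, went from −0.41 to 0.087 without replicate 2.

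Among ion channels, 3 sodium channel genes lay wholly below saline, as did 5.60% of all genes. Scn3a, a pore-forming subunit prominent in development, measured 67.2, 87.1 and 75.5 CPM after saline and 50.9, 59.8 and 49.4 CPM after cocaine. The gap held in every library, and its log2 fold change was −0.52 ± 0.18 with all libraries and −0.50 without replicate 2. Scn2a1, another pore-forming subunit, measured 283, 362 and 322 CPM after saline and 249, 262 and 257 CPM after cocaine, with log2 fold changes of −0.33 and −0.25. Scn2b, an auxiliary subunit, measured 590.2, 876 and 609 CPM after saline and 537, 245 and 415 CPM after cocaine, where the gap was widest between the libraries numbered 2, and its log2 fold change of −0.80 was −0.32 without them. These were 3 of 17 sodium and calcium channel genes at an unadjusted p under 0.05 toward lower levels, against 2.52% of all genes. Of the 17, 9 were higher and 8 lower, with a median of 0.027 that ran from −0.13 to 0.057 when 1 library was left out. Of 32 potassium and pacemaker channel genes 18 were higher and 14 lower (median 0.088). Kcnn2, a calcium-activated potassium channel that paces these neurons' firing, measured 6.35, 3.67 and 7.28 CPM after saline and 13.1, 12.1 and 7.97 CPM after cocaine, with groups that were apart by a small gap. Rgs8, a regulator of G protein signalling, measured 66.8, 63.9 and 49.0 CPM after saline and 78.5, 119.9 and 84.2 CPM after cocaine, with no overlap and log2 fold changes of 0.65 ± 0.20 and, without replicate 2, 0.50. It stood at 411 CPM in the input. Of 17 RGS genes 10 were higher and 7 lower. Of 27 synaptic vesicle release genes 15 were higher and 12 lower (median 0.040), and the members with the smallest p, Syn3 at 38.9 ± 11.8 and 73.2 ± 35.0 CPM and Cplx2 at 736 ± 68.1 and 1000.3 ± 332 CPM, had their high value in cocaine library 2, where Syn3 reached 113 and Cplx2 1378 CPM.

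Immediate early genes are those that neurons switch on within minutes of strong activity. Of 22 tested, 13 were higher and 9 lower with a median log2 fold change of 0.020, and 13 and 9 with a median of 0.079 without replicate 2. Leaving out 1 library at a time gave medians from −0.043 to 0.41, the highest without saline library 1. Nr4a2, an orphan nuclear receptor, measured 6.97, 3.42 and 8.01 CPM after saline and 14.1, 14.2 and 9.04 CPM after cocaine. Its groups did not overlap, by a small gap between saline library 3 and cocaine library 3, and its log2 fold change of 1.02 ± 0.43 was 0.63 without replicate 2. The input held 69.9 CPM of it. The summed level of the list was 415.3 CPM in saline library 1 and 206.5 and 273.9 CPM in the other saline libraries, so that the spread within saline spanned the cocaine range of 300.0 to 334.5 CPM.

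Of 44 genes of chromatin and DNA methylation tested, 34 were higher and 10 lower, where 50.6% of all genes were higher, with a median of 0.27. 9 lay wholly above saline and 0 below, where 4.86% and 5.60% of all genes did so. 4 had an unadjusted p under 0.05 toward higher levels, against 2.76% of all genes, and 0 passed. Without replicate 2, 36 were higher and 8 lower but the median was 0.14, and leaving out 1 library at a time gave medians from 0.14 to 0.32. The mean level of the list, as log2 CPM relative to each gene's mean over the 9 purified libraries, was −0.041, −0.15 and −0.11 in saline libraries 1 to 3 and 0.034, 0.15 and 0.13 in cocaine libraries 1 to 3, so that the groups did not overlap. The yoked libraries gave −0.082, −0.070 and 0.13. Zbtb38, a zinc finger reader of methylated DNA (chr9:96682767-96731675), measured 127, 95.1 and 119 CPM after saline and 159, 204 and 157 CPM after cocaine. The groups were apart in every library, and the log2 fold change of 0.61 ± 0.19 was 0.38 without replicate 2. Kat2a, a histone acetyltransferase, stood at 54.1 ± 3.27 and 80.0 ± 28.3 CPM, and the deacetylases Sirt2 at 164 ± 15.3 and 234 ± 77.4 CPM and Hdac3 at 58.5 ± 5.34 and 76.1 ± 10.9 CPM. For these 3 the highest library was cocaine library 2, and their log2 fold changes without replicate 2 were 0.22, 0.15 and 0.20.

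Of 20 circadian clock genes tested, 14 were higher and 6 lower with a median of 0.27, and 15 and 5 with a median of 0.28 without replicate 2. Leaving out 1 library at a time gave medians from 0.14 to 0.36, the lowest without saline library 3 (0.139) and cocaine library 1 (0.148). Per1, a repressor of the clock that also responds to cyclic AMP, measured 23.5, 17.8 and 20.6 CPM after saline and 35.5, 20.8 and 34.1 CPM after cocaine. Cocaine libraries 1 and 3 lay above all saline libraries and cocaine library 2 lay among them, and the log2 fold change was 0.55 ± 0.24 with all libraries and 0.67 without replicate 2. Per3, its relative, measured 15.1, 9.82 and 12.2 CPM after saline and 25.5, 14.7 and 17.9 CPM after cocaine, with overlap through cocaine library 2 and log2 fold changes of 0.64 and 0.68. Of the 20, 1 lay wholly above saline and 2 below it, against 4.86% and 5.60% of all genes. The labels give no time of day for the dissections. Of 18 forebrain interneuron transcription factors 15 were higher and 3 lower (median 0.20), but 10 and 8 without replicate 2 (median 0.015).

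**Figure D4:**
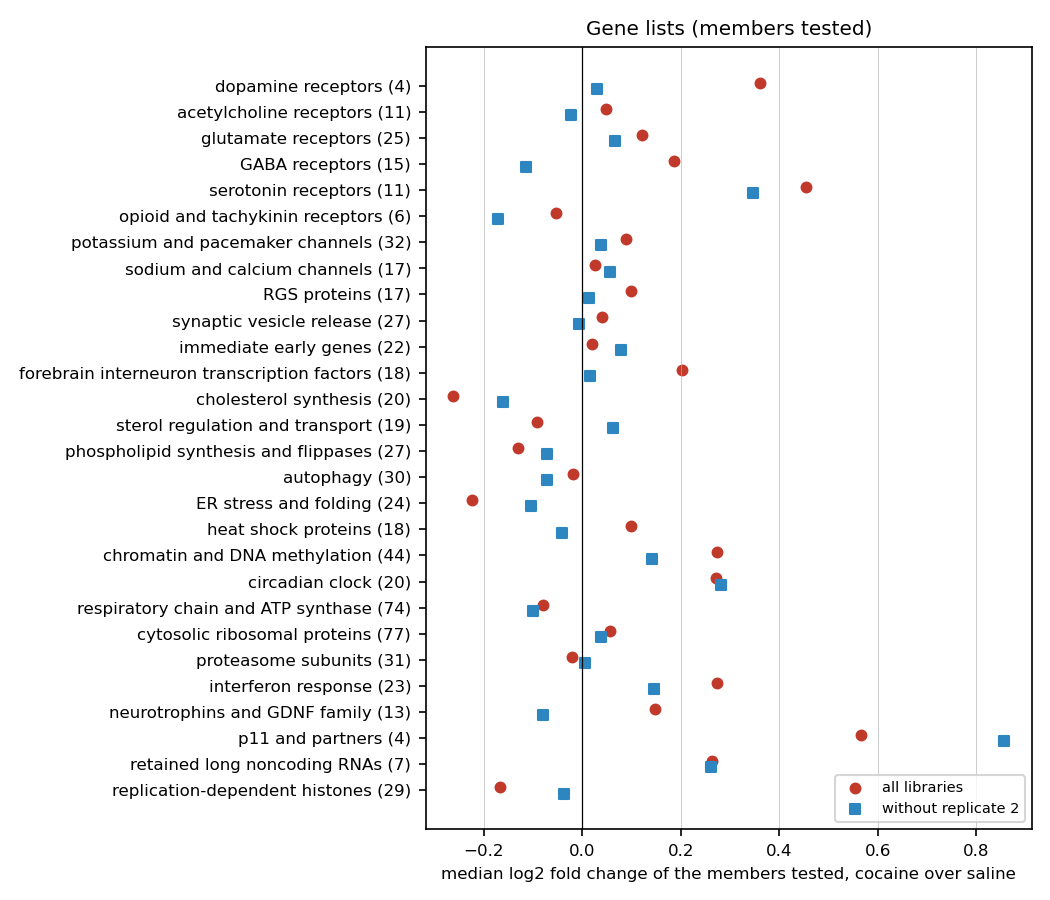
Median log2 fold change of cocaine over saline (horizontal axis) for 28 gene lists, with the number of tested members in brackets, with all libraries (red circles) and without replicate 2 of each group (blue squares). Chromatin genes stand at 0.27 and 0.14, circadian genes at 0.27 and 0.28, and cholesterol synthesis at −0.26 and −0.16.

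Genes of the respiratory chain and ATP synthase, which make the neuron's ATP, leaned slightly toward lower levels. Of 74 tested, 45 were lower and 29 higher with a median of −0.080, and 12 lay wholly below saline and 2 wholly above, against 5.60% and 4.86% of all genes. Without replicate 2, 61 were lower and 13 higher with a median of −0.10, and the median stayed between −0.12 and −0.046 when 1 library was left out. Ndufc2 and Ndufs1, subunits of complex I, measured 148, 216 and 162 CPM and 67.0, 73.3 and 67.9 CPM after saline. After cocaine they measured 126, 95.4 and 130.3 CPM and 50.9, 48.9 and 59.5 CPM, in each case with no overlap. Other subunits went the other way, among them Atp5d of the ATP synthase at 372 ± 47.5 and 481 ± 17.0 CPM and Ndufa10 at 187 ± 7.61 and 248 ± 72.8 CPM. Of 31 proteasome subunits 14 were higher and 17 lower (median −0.020). Psma6, a subunit of the core ring, stood at 133 ± 44.7 and 90.0 ± 6.41 CPM and Psma1 at 73.4 ± 8.05 and 54.3 ± 9.64 CPM. Cytosolic ribosomal proteins were 48 higher and 29 lower of 77 (median 0.057), and Rpl27a rested on cocaine library 2, with 133 CPM against 40.5 and 49.0 CPM. Their copies elsewhere in the genome make single values uncertain.

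Of 24 genes of protein folding and stress in the endoplasmic reticulum, 17 were lower and 7 higher (median −0.22), and 19 and 5 without replicate 2 (median −0.11). Sel1l, a part of the ligase that clears misfolded proteins, measured 120.1, 202 and 136 CPM after saline and 104, 110.4 and 99.2 CPM after cocaine. Canx, the chaperone calnexin, measured 335, 406 and 354 CPM after saline and 287, 278 and 283 CPM after cocaine. For both, all cocaine libraries lay below all saline libraries, and the log2 fold changes were −0.55 ± 0.20 and −0.37 ± 0.14, or −0.32 and −0.27 without replicate 2. Ddit3, the stress-induced factor CHOP, went the other way, at 5.04, 6.55 and 4.07 CPM after saline and 6.98, 13.6 and 9.40 CPM after cocaine, with no overlap. It lies beside overlapping annotations of Mbd6 and Mars1. Of 18 heat shock genes 13 were higher and 5 lower, and 7 and 11 without replicate 2 (medians 0.099 and −0.042). The chaperone Cryab stood at 11.7 ± 3.34 CPM after saline and 17.5 ± 1.31 CPM after cocaine, against 127 CPM in the input. Of 30 autophagy genes 12 were higher and 18 lower (median −0.020), with Fyco1 the member of smallest p.

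Interferon response genes were 15 higher and 8 lower of 23, with a median of 0.27, and 14 and 9 with a median of 0.14 without replicate 2. H2-D1, a class I histocompatibility gene (chr17:35263094-35267497), measured 16.5, 19.0 and 17.7 CPM after saline and 20.2, 42.0 and 32.2 CPM after cocaine. Its groups did not overlap, its log2 fold change of 0.83 ± 0.25 was 0.63 without replicate 2, and the yoked libraries stood at 29.0 ± 4.803 CPM. Reads of H2-D1 may be shared with near-identical class I genes. Irf4, a transcription factor, measured 9.84, 21.2 and 18.9 CPM after saline and 20.4, 29.6 and 54.4 CPM after cocaine, with overlap, and the input held 0.196 CPM. All 4 tested genes of p11 (S100a10) and its partners were higher (median 0.57, and 0.86 without replicate 2), of which Anxa2 lay under 0.6 CPM in every library of both groups. The median was 0.031 without cocaine library 3, and 0.20 for the 2 genes of at least 5 CPM. Neurotrophin and GDNF family genes were 7 higher and 6 lower of 13, and Gfra1, a GDNF receptor, stood at 3.96 ± 2.19 and 1.94 ± 1.005 CPM.

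Of markers of other cell types, several lists moved with the comparison or with replicate number. Oligodendrocyte markers were 10 higher and 3 lower of 13 (median 0.36, and 0.32 without replicate 2), and their summed level was 265.9 to 586.3 CPM in saline and 370.5 to 631.0 CPM in cocaine libraries, against 3403 CPM in the input. None of the 13 was at 0 in all 6 libraries. Ermn, a myelin cytoskeleton protein, measured 18.6, 5.39 and 6.28 CPM after saline and 22.6, 29.5 and 19.3 CPM after cocaine, and Mobp, a myelin protein, 37.6, 15.7 and 22.04 CPM after saline and 53.2, 39.7 and 41.3 CPM after cocaine. The groups were apart for both by a narrow gap to saline library 1. Leaving out 1 library at a time moved the oligodendrocyte median between 0.011 and 0.75. Cortical glutamatergic markers were 6 higher and 1 lower of 7, at a summed 25.5 to 38.9 CPM after saline and 29.5 to 51.7 CPM after cocaine. Markers of other striatal interneurons were 8 higher and 2 lower of 10, with 31.8 to 39.9 CPM after saline and 44.2 to 66.5 CPM after cocaine, so that the sums did not overlap. Of these, Calb2, the calretinin gene, lay under 0.5 CPM in all 6 libraries. Astrocyte markers were 10 higher and 2 lower of 12 (410.1 to 684.0 CPM after saline, 463.5 to 746.2 CPM after cocaine) and oligodendrocyte precursor markers 5 and 2 of 7 (63.4 to 85.2 and 66.1 to 89.3 CPM). Microglial markers were 5 higher and 5 lower of 10 tested (21.0 to 34.4 and 18.2 to 31.1 CPM), and Itgam measured 3.83, 1.16 and 0.244 CPM after saline and 0.327, 0.0280 and 0.233 CPM after cocaine. Spiny neuron markers were 8 higher and 1 lower of 9 for the D1 type (735.5 to 823.3 and 704.6 to 1092 CPM), 6 and 1 of 7 for the D2 type (165.1 to 264.8 and 256.4 to 275.9 CPM) and 13 and 3 of 16 for shared signalling genes (3465 to 5025 and 4110 to 4663 CPM), among them Gng7 at 162 ± 47.0 and 227 ± 14.4 CPM. Ependymal and choroid plexus markers summed to 97.2 CPM in saline library 3 and 5.74 to 10.8 CPM in the other 5. Endothelial and mural markers (6 higher and 1 lower of 7) summed to at most 19.1 CPM in any of the 6 libraries, and 1 blood gene passed the filter, at most 0.634 CPM. The part of other cells in the differences described above was not tested.

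**Figure D5:**
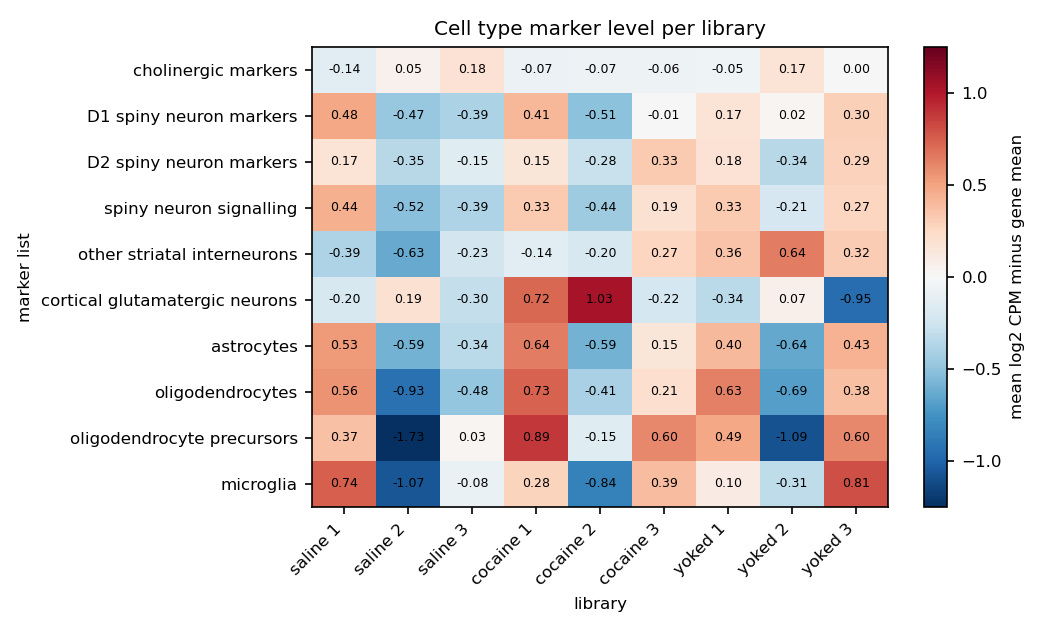
Mean log2 CPM of each cell type's markers relative to the gene's mean over 9 libraries (colour and printed value), with marker lists in rows and purified libraries in columns. Glial and spiny neuron lists are low in saline library 2 and cocaine library 2 (oligodendrocytes −0.93 and −0.41) and high in libraries 1 (0.56 and 0.73), while cholinergic markers stay between −0.14 and 0.18.

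Levels in the yoked and input libraries, which do not enter the fold change, show how far each transcript is depleted. A set of 10241 genes had at least 5 CPM over the 6 libraries and more than 3 counts in the input. Of these, 4.13% were over 4-fold lower in the yoked libraries than in the input. The share was 9.90% (30 of 303) among genes higher after cocaine at an unadjusted p under 0.05 and 0.31% (1 of 318) among those lower. Without replicate 2 it was 18.1% (33 of 182) and 0.00% (0 of 99). Pla2g16, at 7.54 ± 4.10 CPM in the yoked libraries and 70.8 CPM in the input, and Mobp, at 37.8 ± 13.7 and 285 CPM, are examples. Fyco1, described above, was also over 4-fold lower, at 11.4 ± 5.16 CPM in the yoked libraries and 47.3 CPM in the input. Mamld1 and Dlx5 were not depleted to this degree, at 34.9 ± 8.55 and 46.0 ± 4.12 CPM in the yoked libraries and 56.6 and 25.8 CPM in the input. Long noncoding RNAs that stay in the nucleus were 5 higher and 2 lower of 7 (median 0.26 with and without replicate 2). Meg3 among them measured 132, 85.1 and 98.7 CPM after saline and 115, 153 and 199 CPM after cocaine, with overlap, against 1707 CPM in the input. Replication-dependent histones, whose mRNAs lack a poly(A) tail, were 11 higher and 18 lower of 29 (median −0.17, and −0.037 without replicate 2), and Hist1h1b lay at or below 1.13 CPM in all 6 libraries. The part of such RNA in the comparison was not tested.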

How the data were processed

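The authors deposited a table of raw, unscaled read counts by gene symbol for each library. Per the submitters' processing notes, STAR 2.0.0e, HTSeq and build mm10 were used. Which annotation, strand setting and read filters went with them is not given in the sources used here. Rows for reads not assigned to a gene were left out. In the 6 libraries, 7.04 to 9.55% of all entries fell in no feature, 1.10 to 1.84% were ambiguous and 36.4 to 56.2% not uniquely aligned. The row named unknown, with at most 1 count, was also left out. Of 32531 symbols, 22641 had a count in a purified library and 22961 matched RefSeq (GRCm38.p6), which gave coordinates and promoters.

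Counts were compared in R 4.3.3 with edgeR 4.0.16, using TMM (trimmed mean of M-values) scaling, the quasi-likelihood F-test with a robust fit, and edgeR's filter with a minimum count of 10 and a minimum total of 15. A common fit of all 9 purified libraries left 6 residual degrees of freedom (3 without replicate 2), and p-values were adjusted by Benjamini-Hochberg over all 14989 genes. Levels are CPM scaled by TMM, with the SD over 3 libraries. Input levels are plain CPM of 1 library. DESeq2 1.42.0, limma voom 3.58.1, other scalings, filters and sets of libraries were tried as alternatives, and the steps were tested on simulated counts.

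Named were Chat, Slc18a3, Slc5a7, Rpl10a and the dopamine receptors, the 12 genes in each direction with the smallest p at 5 CPM or more, the 5 in each direction without replicate 2, up to 4 members per list, and below 5 CPM the 3 in each direction. The values of some list members that the rule names are not reported here. The libraries, lists (41, of which 13 hold cell type markers) and rules were chosen with earlier results of these data known, so lists are described by counts and medians without a test.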

Additional observations from a re-analysis of the deposited data

How the results depend on the processing

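The count of 0 genes passing was the same under RLE and upper quartile scaling, DESeq2, limma voom with quality weights, genes of at least 5 CPM only, the 6 cocaine and saline libraries only, and with each library left out (0 to 0). Without a filter on low counts it was 60, with 1038 genes higher and 652 lower at an unadjusted p under 0.05, and 14 named genes passed, with adjusted p from 1.8e-05 (Klf7) to 0.0392 (Scn2b) in edgeR. Without replicate 2 of each group 159 genes were lower. Leaving out 1 library gave 203 to 620 genes higher and 102 to 534 lower, the smallest without saline library 2 (203 and 102) and without cocaine library 2 (225 and 174).

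Of the 99 named genes, most kept their sign under the alternatives run. Without replicate 2, Slc18a3 turned to 0.033, Drd3 to −1.69 and Oprl1 to 0.087, and with limma voom Drd3 was −1.05. With 1 library left out, Drd3 ranged from −1.199 (without cocaine library 2, and −0.13 without saline library 2) to 0.92, E2f2 from −0.21 (without cocaine library 3) to 0.94, Zfp719 from −0.60 to 0.0064 (without cocaine library 1) and Chrnb3 from −3.39 to 0.023 (without saline library 2). The cause of these shifts was not tested.

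Replicate numbers were not taken to pair the saline and cocaine libraries, since deviations of same-numbered libraries correlated at 0.27, 0.073 and 0.049 over 10243 genes, and cocaine library 2 correlated more with saline library 3 (0.087). With the yoked libraries the same-numbered correlations were 0.29, 0.20 and 0.18 for saline and 0.24, 0.073 and 0.22 for cocaine. Of the 9 same-numbered pairs over the 3 groups 9 were above 0, a hint from the data that same-numbered libraries are linked. Of the 18 others 17 were below 0, which is no separate observation. Deviations from a group's mean sum to 0 over its libraries, so positive same-numbered pairs pull the others down. The labels give same-numbered libraries the same index without a reason, and name no shared animal, litter or day. With the replicate number as a block, 0 genes passed (smallest adjusted p = 0.710), with 469 higher and 498 lower. Genes whose groups do not overlap numbered 784 higher and 779 lower under RLE and 854 and 716 under upper quartile scaling, alternatives added after the data were seen. Below 5 CPM the typical 95% interval reached 1.98 to each side on the log2 scale. The median of 24 of the 41 lists changed sign with at least 1 library left out, that of 8 without replicate 2 and that of 5 among members of at least 5 CPM.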
